A study of Mus musculus with 230 samples.

Results

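Pvalb, Spp1, Cntnap2, Necab2, Calb1 and Etv1 are genes used to recognise large-diameter sensory neurons of the dorsal root ganglion, proprioceptors among them. They were chosen by name, and all 6 were found among the 53278 genes of the count table. They were followed across pools of neurons and across single neurons, some from intact ganglia and others from ganglia of an injured sciatic nerve.

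The animals were crosses of the mouse strains C57BL/6 and CAST/Ei, and the labels give no other allele. L4 and L5 ganglia were dissociated with enzymes and the neurons were picked by hand. RNA was read by SMART-seq2, a full-length RNA-seq method for very small inputs, and for single cells it came from the cytoplasm after the nucleus had been taken out. The methylation libraries of the same series were not analysed here. The 18 low-input libraries each hold a pool of neurons and form 6 groups of 3: intact or nerve-injured, at 1, 8 and 12 months of age. The 69 single cells were 18 intact and 21 injured at 1 month, and 8 intact and 22 injured at 1 year. How many neurons went into a pool, how long after surgery they were taken and which animal gave which library are not given in the sources used here. The p-values below therefore measure the spread between these libraries, which may be partly technical.

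Proprioceptors carry signals of muscle length and tension to the spinal cord through the thickest myelinated axons, and low-threshold touch receptors use fibres nearly as thick. During development the neurotrophin receptor TrkC, made from Ntrk3, and the transcription factor Runx3 set up the proprioceptor identity. Etv1, an ETS-family transcription factor, is needed for their central projections to reach motor neurons. Parvalbumin, made from Pvalb, is a cytosolic calcium buffer and the usual proprioceptor marker. Calb1 (calbindin) and Necab2 also bind calcium, Spp1 makes the secreted phosphoprotein osteopontin, and Cntnap2 makes the adhesion protein Caspr2, which holds potassium channels beside the nodes of myelinated axons.

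Pvalb, Spp1 and Etv1 were all high in the same 5 single cells described below, from 1203, 360 and 396 CPM upward. Cntnap2 overlapped the last 2 of them there, at 263 to 507 CPM. The sequence just upstream of Pvalb, Spp1 and Etv1 is shown, 5′ to 3′ on the strand of the gene. These are the 250 bases before the RefSeq start site, in build GRCm38.p6, at chr15:78206401-78206650 (minus strand), chr5:104434861-104435110 (plus strand) and chr12:38779832-38780081 (plus strand). Capitals mark a TATA box (TATAAA or TTTATA), a RUNX core (TGTGGT or ACCACA) or an ETS core (CCGGAA or TTCCGG), searched on both strands.
Pvalb: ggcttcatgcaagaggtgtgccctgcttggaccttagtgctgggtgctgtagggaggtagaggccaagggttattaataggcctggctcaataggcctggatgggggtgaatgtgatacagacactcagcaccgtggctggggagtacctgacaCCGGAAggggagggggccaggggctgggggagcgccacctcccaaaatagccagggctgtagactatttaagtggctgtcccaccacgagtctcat
Spp1: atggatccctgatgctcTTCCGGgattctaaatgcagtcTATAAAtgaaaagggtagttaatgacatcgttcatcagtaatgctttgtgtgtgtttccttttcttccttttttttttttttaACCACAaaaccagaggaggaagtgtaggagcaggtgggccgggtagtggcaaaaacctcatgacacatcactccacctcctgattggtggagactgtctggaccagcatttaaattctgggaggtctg
Etv1: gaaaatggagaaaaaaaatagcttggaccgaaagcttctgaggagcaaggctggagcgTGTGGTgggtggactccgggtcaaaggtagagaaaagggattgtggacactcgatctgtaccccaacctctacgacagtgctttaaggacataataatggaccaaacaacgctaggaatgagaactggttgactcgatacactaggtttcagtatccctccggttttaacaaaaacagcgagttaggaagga
The Pvalb window held an ETS core that starts 96 bases before the start site. The Spp1 window held 1 match of each motif: the TATA box started 211 bases, the RUNX core 128 and the ETS core 233 bases before the start site. The Etv1 window held a RUNX core alone, 192 bases before it. Of 32817 RefSeq windows of this length, 12.4% held the TATA box, 14.04% the RUNX core and 12.0% the ETS core, so single matches are common. No motif was found in the windows of Cntnap2 and Necab2. The Etv1 and Cntnap2 windows start from RefSeq start sites 702 and 704 bases inside the gene as the count table draws it. Pvalb, Spp1, Cntnap2 and Etv1 had 2 RefSeq windows each, and that nearest to the drawn gene start was used. No window was available for Calb1.

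The low-input libraries held 7531967 to 19443627 counts on mouse genes. A single RNA feature on chr17:39846353-39848827 took 29.4% to 93.8% of them, more in the intact 8- and 12-month groups than in any injured group, which left 770328 to 11587094 counts for all other genes. Levels in pools are therefore given as CPM, counts on a common library total after TMM scaling, a scaling by the bulk of the genes. Intact 12-month replicate 2 stood apart: it had the fewest other counts, and 40.5% of them were mitochondrial. Its TMM factor was 0.0444, against 0.493 to 1.81 in the other libraries, so few counts give a high CPM there. It held 102 counts of Cntnap2, 29 of Etv1, 20 of Calb1, 12 of Spp1, 7 of Pvalb and 2 of Necab2. Markers were checked against the labels. The 8 neuron markers summed to 3605 to 7901 CPM in every library, while 8 injury genes, such as Atf3 and Sprr1a, summed to 1063 to 3773 CPM where the nerve was injured and to 25.3 to 604 CPM where it was not. The 10 macrophage markers summed to at most 32.5 CPM. The 8 satellite glia markers reached 1297 to 2039 CPM in the injured 1-month libraries against 97.7 to 616 CPM in the intact ones, and their part in the results below was not tested.

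Pvalb lies on chr15:78191114-78206400 (minus strand). Its level was 74.99, 137 and 76.6 CPM in the 3 intact 1-month libraries and 24.9, 125 and 82.97 CPM in the injured ones. At 8 months the intact libraries held 0.412, 0 and 157 CPM and the injured ones 0.278, 0.556 and 32.3 CPM, so that a single library carried almost all of it in each group. A library at 0 counts still allows up to 3 counts. At 12 months they held 228, 12.6 and 37.8 CPM when intact and 22.7, 37.2 and 1.31 CPM when injured. The 12-month ranges overlapped between 12.6 and 37.2 CPM, and the ranges overlapped at the other ages too. By group means ± SD (n = 3), Pvalb ran from 96.3 ± 35.6 CPM in intact 1-month pools to 11.04 ± 18.4 CPM in injured 8-month pools. In that order no neighbouring groups were apart. In bulk pools, fewer cells of a type and less RNA per cell cannot be told apart.

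Etv1 lies on chr12:38779380-38870484 (plus strand). In intact libraries it was at 16.4, 64.1 and 45.8 CPM at 1 month, 0, 4.32 and 50.2 CPM at 8 months, and 111, 52.4 and 43.9 CPM at 12 months. In injured libraries it was at 22.2, 63.1 and 58.3 CPM at 1 month, 5.37, 1.81 and 30.1 CPM at 8 months, and 18.7, 25.8 and 5.76 CPM at 12 months. At 12 months every intact library was above every injured one in TMM-scaled CPM, from 43.9 CPM upward against 25.8 CPM at most. The level in intact replicate 2 rests on 29 counts and a TMM factor of 0.0444. Whether the gap holds under another scaling was not tested. Of all 14212 genes tested, 25.9% had 3 injured and 3 intact libraries apart on this scale at 12 months, 14.3% at 8 months and 17.8% at 1 month. Among the members it was 1 of 6 at 12 months and 0 at the other ages. So few genes cannot be told from that background. The intact 12-month pools had the highest Etv1 mean, 68.98 ± 36.4 CPM, and the injured 8-month pools the lowest, 12.4 ± 15.4 CPM (SD, n = 3).

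Spp1 lies on chr5:104435118-104441050 (plus strand). Intact libraries held 2.17, 70.8 and 3.69 CPM at 1 month, 0, 0 and 109.6 CPM at 8 months, and 282, 21.7 and 0 CPM at 12 months. Injured libraries held 23.4, 81.5 and 80.8 CPM at 1 month, 0.925, 3.54 and 30.7 CPM at 8 months, and 19.6, 107 and 12.8 CPM at 12 months. All 3 libraries at 0 were intact, as were the highest ones at 8 and 12 months. The injured 1-month pools were the most even group, at 61.9 ± 33.4 CPM (SD, n = 3). The intact 12-month mean of 101.4 ± 157 CPM rested on 1 library.

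Calb1, on chr4:15881264-15908064 (plus strand), was nearly absent from 1 group. Its level was 1.5, 127 and 0.461 CPM in intact 1-month, 0, 0 and 1.64 CPM in intact 8-month, and 155, 36.1 and 0 CPM in intact 12-month libraries. Injured libraries held 70.2, 100.4 and 6.19 CPM at 1 month, 0, 26.04 and 27.4 CPM at 8 months, and 4.96, 22.9 and 6.49 CPM at 12 months. The 3 intact 8-month libraries were low together, and theirs was the lowest of the group means, 0.547 ± 0.948 CPM (SD, n = 3). At 8 months 2 injured libraries stood above the intact ones, and the third was at 0.

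Cntnap2, on chr6:45059357-47304213 (plus strand), was the steadiest member. It was at 209, 86.7 and 103 CPM in intact 1-month, 150.3, 90.8 and 30.5 CPM in intact 8-month, and 87.4, 184 and 48.02 CPM in intact 12-month libraries. In injured libraries it was at 89.2, 125 and 109.9 CPM at 1 month, 54.8, 108 and 89.2 CPM at 8 months, and 111, 78.7 and 106 CPM at 12 months. Group means stayed between 83.9 ± 26.9 and 133 ± 66.4 CPM (SD, n = 3). The gene spans 28 other annotated features, 4 of them on the opposite strand, and the counting ignored strand.

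Necab2, on chr8:119446719-119472640 (plus strand), was low throughout. Intact libraries held 2.47, 3.79 and 6.06 CPM at 1 month, 2.06, 4.86 and 15.7 CPM at 8 months, and 10.2, 3.61 and 0 CPM at 12 months. Injured libraries held 2.12, 4.36 and 0.795 CPM at 1 month, 0.463, 6.32 and 12.0 CPM at 8 months, and 1.51, 1.64 and 6.34 CPM at 12 months. The injured and intact ranges overlapped at each age. Per kb of summed exon length, which allows genes to be compared, the medians over the 18 libraries were 33.4 CPM for Pvalb, 12.5 for Spp1, 9.46 for Cntnap2, 2.10 for Etv1, 1.77 for Necab2 and 1.31 for Calb1.

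**Figure D1:**
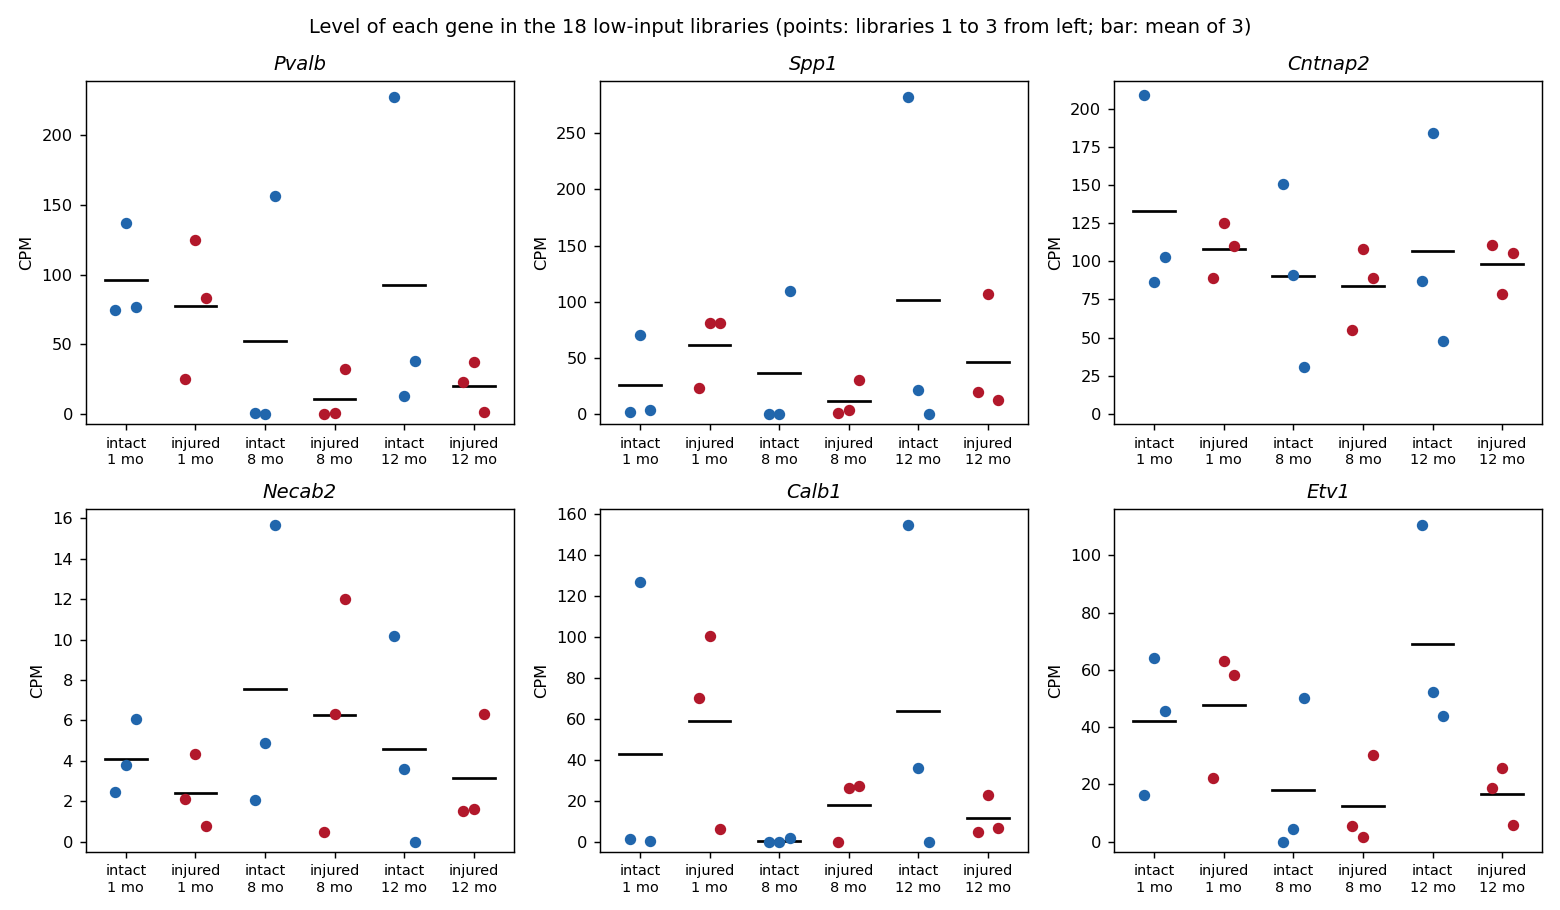
Level of each gene in CPM (vertical axes, each starting at 0) in the 18 low-input libraries, by group on the horizontal axes; each point is 1 library. Pvalb, Spp1, Calb1 and Etv1 scatter widely within groups (Pvalb from 0 to 157 CPM among intact 8-month libraries), while Cntnap2 stays between 30.5 and 209 CPM.

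Libraries of the same group differed widely in most of these genes. The biological coefficient of variation, edgeR's estimate of the library-to-library spread beyond counting error, was 1.73 for Spp1, 1.70 for Calb1 and 1.45 for Pvalb. Of the 14212 genes, 99.6%, 99.6% and 98.4% had a lower one. It was 1.03 for Etv1 (90.2% lower), 0.925 for Necab2 (85.9%) and 0.451 for Cntnap2 (49.4%), against 0.543 for all genes together. In each of the 6 groups, 1 and the same library was the highest of its group for Pvalb, Spp1, Calb1 and Etv1, a pattern noticed after the values were seen. These libraries were replicate 2 of intact 1-month, injured 1-month and injured 12-month, replicate 1 of intact 12-month, and replicate 3 of both 8-month groups. They were also the highest for Necab2 in 4 groups and for Cntnap2 in 1.

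Whether nerve injury changed the genes was asked with edgeR's quasi-likelihood test over the 18 libraries, with Benjamini-Hochberg adjustment over all genes and a threshold of 0.05. All 6 members passed the filter on low counts. None passed the test for injured against intact pools averaged over the 3 ages, where 6.18% of all genes did (878 genes, or 329 when replicate numbers entered the fit as a block). The averaged log2 change (± SE) was −1.59 ± 1.07 for Pvalb (adjusted p = 0.439), with a 95% interval from −3.87 to 0.68. For Etv1 it was −0.81 ± 0.71 (adjusted p = 0.576, interval −2.33 to 0.71). For Calb1 it was 0.94 ± 1.14 (adjusted p = 0.702, interval −1.49 to 3.38), and for Spp1 −0.51 ± 1.17 (adjusted p = 0.863, interval −3.01 to 1.98). These intervals leave room for changes of several fold. The estimate for Pvalb turned to 1.04 without intact 8-month replicate 3, the library with 157 CPM. Cntnap2 was bounded more closely, at −0.16 ± 0.30 (adjusted p = 0.815, interval −0.79 to 0.47), and Necab2 lay at −0.55 ± 0.65 (adjusted p = 0.691, interval −1.94 to 0.83).

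The single ages gave 0 of 6 members as well, against 0.232% of all genes at 1 month, 0.957% at 8 months and 2.99% at 12 months. The replicate block lowered these counts of genes from 33, 136 and 425 to 5, 29 and 58, still with 0 members. The difference farthest from 0 was that of Calb1 at 8 months, 4.89 ± 2.35 on the log2 scale, with an interval from −0.11 to 9.89 (unadjusted p = 0.0545, adjusted p = 0.426 by edgeR). For Etv1 at 12 months, the member whose libraries did not overlap, it was −2.06 ± 1.28 (adjusted p = 0.417). Pvalb stood at −2.24 at 8 months and −2.23 at 12 months. In this fit no member reached an unadjusted p under 0.05 in an injury comparison. DESeq2 and limma-voom, run on the same libraries, called 0 of 6 members in these 4 comparisons too. Of all genes DESeq2 called 10.9% for the average and 0.865%, 3.75% and 8.66% at 1, 8 and 12 months, and limma-voom 8.75%, 0.633%, 0.0211% and 3.37%. With no filter on low counts, which brought 28520 genes into the fit, edgeR called Pvalb, Etv1 and Calb1 for the average at nearly the same log2 changes (−1.57, −0.79 and 0.96), beside 6.04% of all genes. The standard error of Pvalb fell from 1.07 to 0.24 in that fit. Scaling by the 92 ERCC spike-in RNAs raised the median change of all genes to 2.90 and called 13493 of 14212 (94.9%). Under it Cntnap2 (3.04), Necab2 (2.41), Etv1 (1.97) and Calb1 (3.56) were called, and Pvalb (1.15) and Spp1 (2.01) were not. All of these but Cntnap2 and Calb1 lay below the median of all genes.

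**Figure D2:**
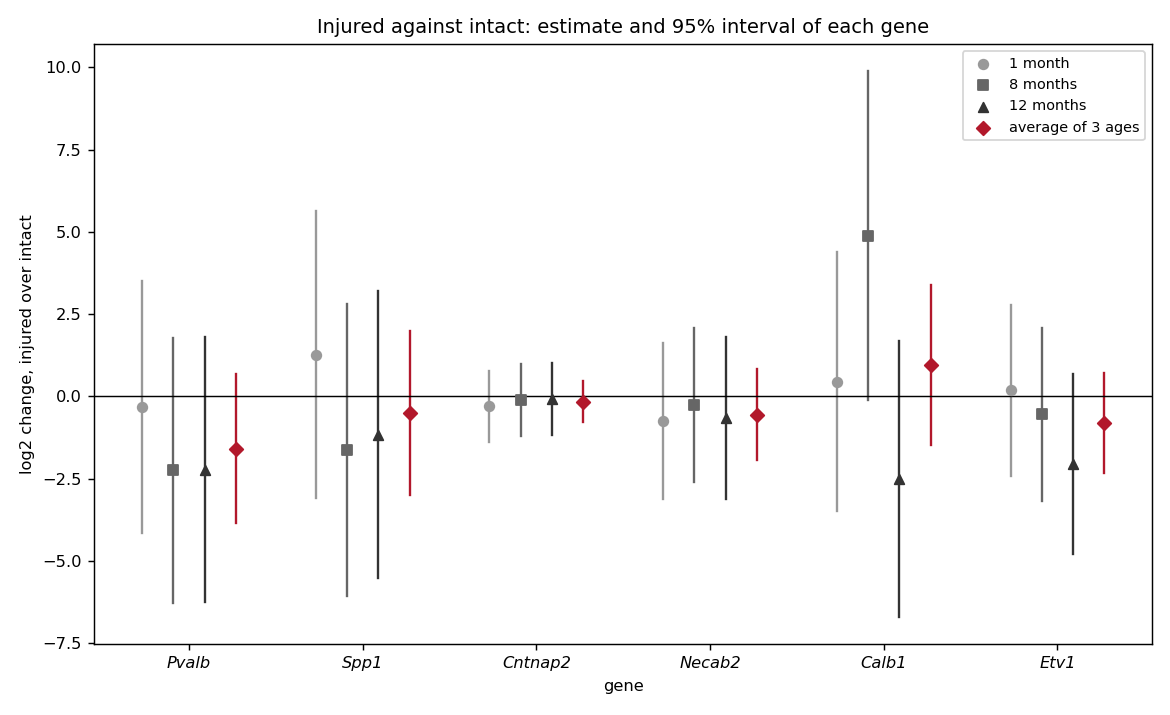
Log2 change of each gene in injured over intact pools (vertical axis) with its 95% interval, at 1, 8 and 12 months (grey symbols) and averaged (red diamonds). Every interval spans 0, and that of Cntnap2 is the narrowest, from −0.79 to 0.47 for the average.

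The age comparisons shared these libraries. Among intact pools 0 of 6 members passed the edgeR test for 8 against 1 month, 12 against 1 month or 12 against 8 months, where 0.922%, 0.246% and 6.69% of all genes did. Calb1 was the member with unadjusted p-values under 0.05. Its log2 difference was −6.16 ± 2.44 for 8 against 1 month (p = 0.0232, adjusted p = 0.223) and 6.76 ± 2.50 for 12 against 8 months (p = 0.0162, adjusted p = 0.109), both set against the intact 8-month pools with 20 counts in all. DESeq2 called it in the second of these (6.88, adjusted p = 0.0269), as it did 15.8% of all genes, and limma-voom called 0 genes there, with 2453 at an unadjusted p under 0.05. Without intact 8-month replicate 3, the one with high Pvalb and Etv1, edgeR called those 2 genes for 12 against 8 months, at 8.78 and 5.02, beside 9.69% of all genes. Among injured pools 0 of 6 members passed in any age comparison, where 0.225% of genes did for 8 against 1 month, 0.113% for 12 against 1 month and 0.0633% for 12 against 8 months. The difference between ages in the injury change gave 0 of 6 members too. There 0.00704% of genes passed for 8 against 1 month, 0% for 12 against 1 month and 0% for the joint test.

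A list of 24 other genes of large-fibre neurons was read beside them, and all 24 were tested. For the averaged injury comparison 1 rose and 0 fell, where 6.18% of all genes were called. There 11 estimates were above 0 and 13 below, and the median log2 change was −0.08 against 0.03 over all genes. The gene that rose was Necab1, a relative of Necab2, which averaged 62.4 ± 23.6 CPM over the injured libraries and 35.6 ± 21.1 CPM over the intact ones (SD, n = 9 each), a log2 change of 1.01 ± 0.29 (edgeR adjusted p = 0.0458). Nefh, the heavy neurofilament chain of thick axons, stood at −1.06 (adjusted p = 0.220), Ntrk2 at 1.94 (adjusted p = 0.196), Heg1 at 1.28 (adjusted p = 0.256) and Calb2 at −2.45 (adjusted p = 0.392). Among intact pools 22 of the 24 estimates lay below 0 for 8 against 1 month, with 0 called and a median of −0.66 against −0.01 over all genes. For 12 against 8 months 16 lay above 0, with Necab1 called (2.08 ± 0.52, adjusted p = 0.0264) and a median of 0.77 against −0.02. In the same comparisons a list of 10 small-fibre genes went the other way: for 8 against 1 month 8 lay above 0 with 1 called higher (median 1.41), and for 12 against 8 months 10 lay below 0 with 3 called lower (median −3.19). Of all genes, 0.922% were called for 8 against 1 month and 6.69% for 12 against 8 months. The part of the pools' make-up in the values of these lists was not tested. Among injured pools 19 of 24 lay below 0 for 8 against 1 month and 20 of 24 for 12 against 1 month, with 0 called in each.

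Across the 18 libraries Pvalb, Etv1, Spp1 and Calb1 were all positively correlated with each other, and Cntnap2 stood apart from them. Pvalb and Etv1 varied together (Pearson r of log2 CPM 0.83, n = 18 libraries), and Etv1 was 12th among all genes in likeness to Pvalb. Spp1 and Calb1 also varied together (r = 0.83), with Spp1 7th in likeness to Calb1. The correlation was 0.69 for Pvalb with Spp1, 0.67 for Etv1 with Spp1, 0.51 for Pvalb with Calb1 and 0.50 for Etv1 with Calb1. Cntnap2 lay between −0.22 and 0.22 with every other member, and Necab2 between 0.07 and 0.45. These values describe libraries that differ in depth and group and may differ in pool composition, and they carry no test.

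**Figure D3:**
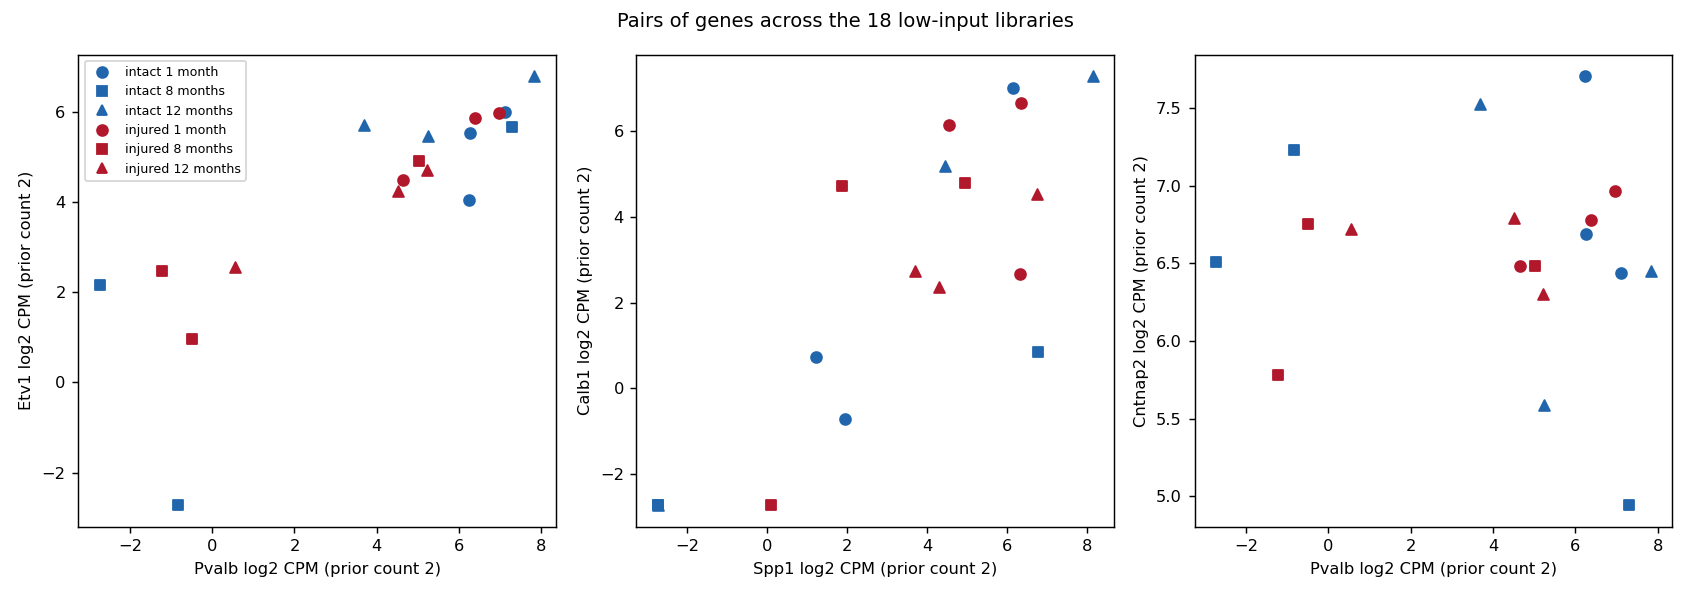
Log2 CPM (prior count 2) of pairs of genes in the 18 low-input libraries, 1 point each, intact in blue and injured in red with 1 symbol per age: Etv1 against Pvalb, Calb1 against Spp1, and Cntnap2 against Pvalb. The first 2 pairs rise together (r = 0.83 in each), while Cntnap2 shows no such trend with Pvalb (r = −0.10).

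The genes most like each member were ranked in the same way. For Pvalb they were Pgf (0.91), Gm13629 (0.90) and Tpm2 (0.90), and all 3 were kept without intact 12-month replicate 2. For Etv1 they were Tmem170 (0.89), Oxr1 (0.88) and Rit2 (0.87), of which 1 was kept. For Spp1 they were Ndst4 (0.91), the integrin gene Itga6 (0.89) and Shox2 (0.88), of which 1 was kept, and for Calb1 Itga6 (0.90), Synj1 (0.90) and 9630001P10Rik (0.87), of which 2 were kept. For Cntnap2 they were Dock5 (0.94), Tmem178b (0.92) and Ryr2 (0.91), with 1 kept. For Necab2 they were Enpp2 (0.81), Asic1 (0.76) and Pign (0.75), with 0 kept.

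Of the 69 cells, 55 had at least 100000 counts outside the most abundant feature, and levels in cells are CPM of those counts: 17 injured and 12 intact cells at 1 month, 18 injured and 8 intact at 1 year. No animal is named for any cell, so each group is 1 sample and no test was made. At 10 CPM or more, Cntnap2 was found in 49 of the 55 cells (89.1%, Clopper-Pearson 95% interval 77.8% to 95.9%). Spp1 was found in 26 (47.3%), Etv1 in 24 (43.6%), Pvalb in 21 (38.2%), Necab2 in 17 (30.9%) and Calb1 in 16 (29.1%). The intervals cover the sampling of cells only, taken as independent draws, although the cells mix ages, injury and unknown animals. Few cells carried most of the RNA: the 3 highest cells held 72.7% of the summed CPM of Calb1, 63.6% of Pvalb, 52.7% of Etv1, 43.1% of Spp1 and 37.9% of Necab2, but 15.9% of Cntnap2.

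Many cell names end in a letter, S, M or L, which the labels do not explain, and 2 end in ML. Names that end in a lower-case m, 2 of them among the deep cells, were read as M. Among the deep cells 13 carried S, 18 M and 12 L, and 10 carried none, the 8 intact 1-year cells among them. Pvalb reached 10 CPM in 2 of 13 S cells (15.4%, interval 1.92% to 45.4%), 7 of 18 M cells (38.9%, 17.3% to 64.3%) and 7 of 12 L cells (58.3%, 27.7% to 84.8%). Its highest value was 12.7 CPM in an S cell, 1267 CPM in an M cell and 2657 CPM in an L cell, with medians of 0.350, 4.40 and 14.1 CPM. Etv1 was found in 4 S, 4 M and 7 L cells, Necab2 in 2, 5 and 4, and Calb1 in 1, 8 and 3. Spp1 was found in 4 S, 6 M and 6 L cells, and its second-highest cell of all, at 1075 CPM, was an S cell. Cntnap2 was found in all 13 S cells, 14 M and 10 L cells. The M cells L4L4M, L4L8M and L4R8M held counts on 561, 1141 and 608 genes, against a median of 11434 over the 69 cells. Mitochondrial genes took 42.5%, 51.1% and 68.3% of their counts outside the most abundant feature. Cntnap2 was under 10 CPM in each. These cells stay in the M shares and in the shares over all 55 cells, and their part in them was not tested. The intervals of neighbouring letters overlapped for each gene, and the letters mix injured and intact cells. These intervals too take cells as independent draws, so their overlap is a description and not a test. With at least 1 count as the measure, over all 68 cells with counts, Pvalb was found in 53.3% of S, 60% of M and 86.7% of L cells. After each cell had been thinned to 500000 counts, which 46 cells allowed, these shares were 20% of 10, 46.2% of 13 and 54.5% of 11 cells.

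**Figure D4:**
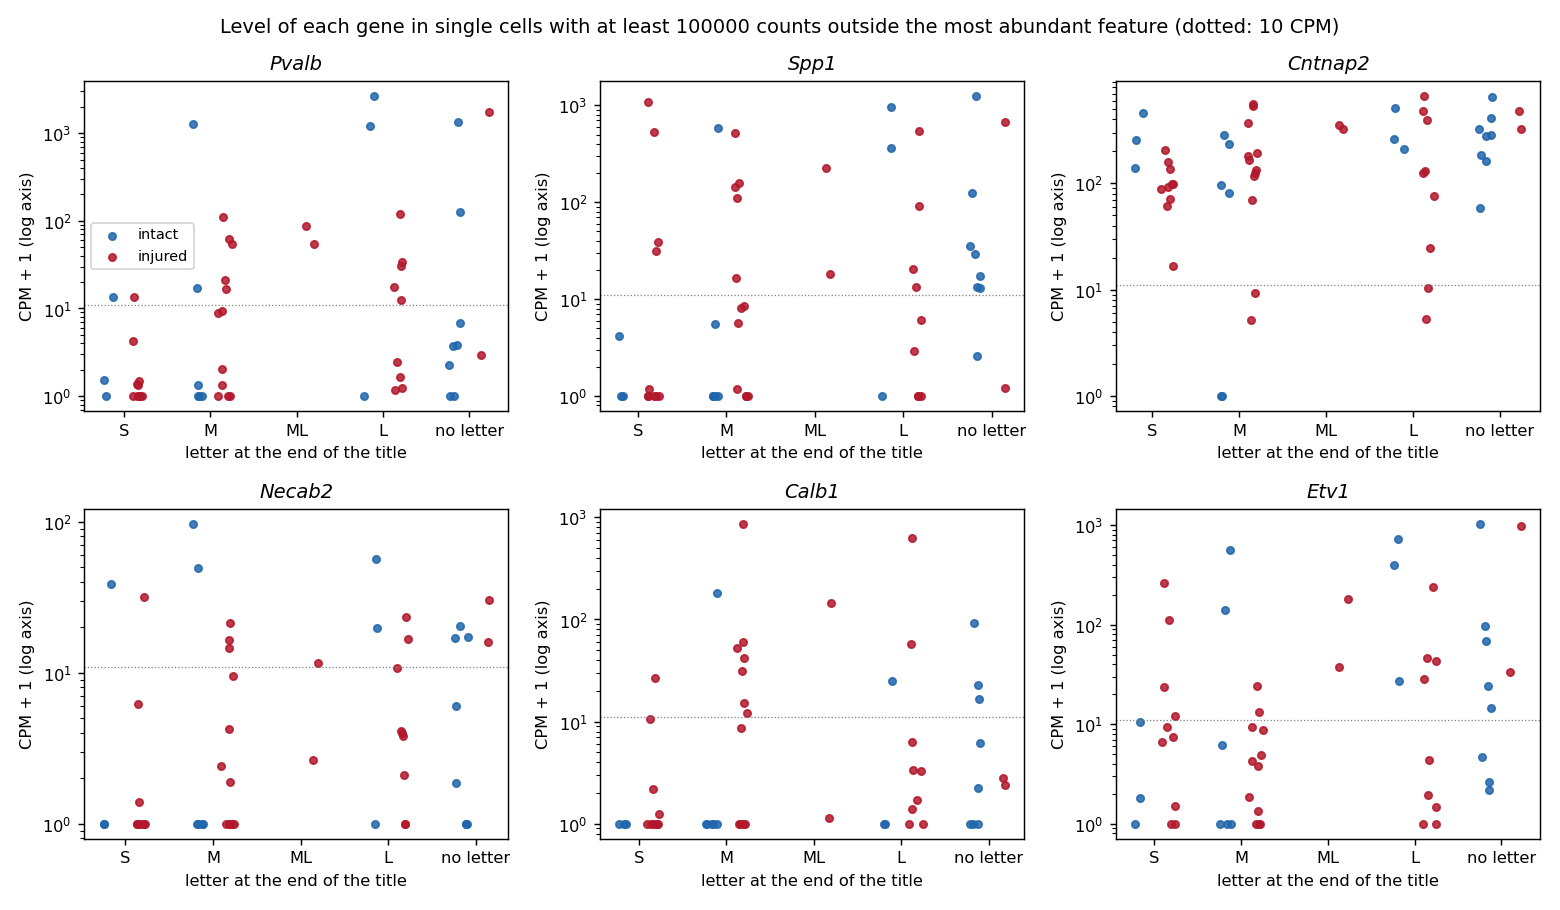
Level of each gene (CPM + 1, log axes) in 55 single cells with at least 100000 counts outside the most abundant feature, by the letter in the cell's name, intact in blue and injured in red; the dotted line marks 10 CPM. Pvalb above 1000 CPM occurs in M, L and unlettered cells and stays at 12.7 CPM or less in S cells, while Cntnap2 is high under every letter.

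A set of 5 cells stood apart by Pvalb, at 1203, 1267, 1334, 1752 and 2657 CPM, and the next cell was at 125 CPM. The set was drawn after the values were seen, so it is a description. It held 4 of the 20 intact cells, 3 from 1 month and 1 from 1 year, and 1 of the 35 injured cells. All 5 were also high in Spp1 (360 to 1247 CPM) and Etv1 (396 to 1029 CPM), the genes whose upstream sequences are shown above. All 5 held Cntnap2 at 263 to 507 CPM and Necab2 at 15.996 to 95.98 CPM, while Calb1 ran from 0 to 180 CPM. Of the genes outside the group, Runx3 was at 57.4 to 97.3 CPM, Ntrk3 at 85.4 to 740 CPM and Nefh at 1768 to 7212 CPM in them. The nociceptor sodium channel gene Scn10a was at 1.21 to 13.9 CPM and the satellite glia list at 36.4 to 333 CPM. The injured cell of the set held 1752 CPM of Pvalb, 968 CPM of Etv1, 677 CPM of Spp1 and 28.02 CPM of the injury gene Sprr1a.

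Runx3 reached 10 CPM in 3 further cells, 1 intact and 2 injured, all from 1 year. They held Pvalb at 61.1, 109 and 125 CPM and Ntrk3 at 477, 1187 and 3035 CPM. Etv1 was at 1.17 to 12.1 CPM and Spp1 at 7.09 to 28.4 CPM in them, below every cell of the Pvalb-high set. Cntnap2 (280 to 552 CPM) and Necab2 (8.52 to 16.1 CPM) were within or near the range of that set.

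**Figure D5:**
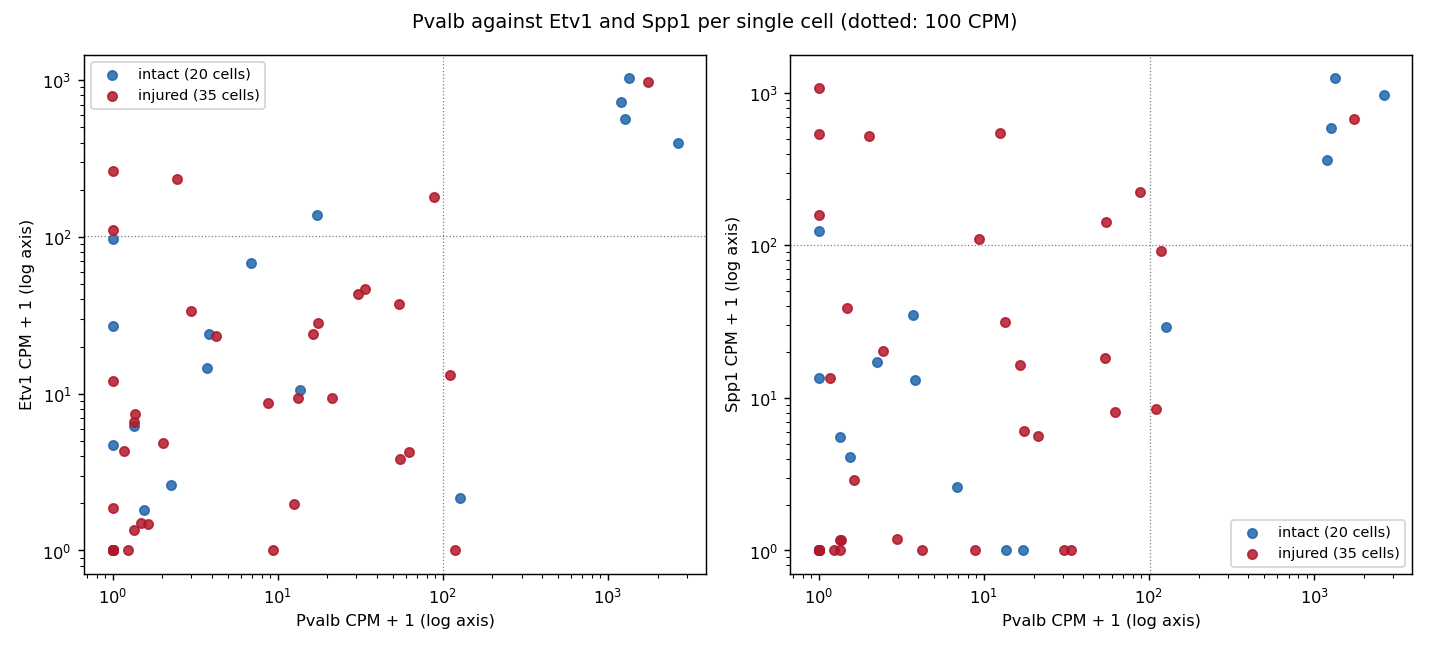
Etv1 and Spp1 (vertical axes) against Pvalb (horizontal axes), CPM + 1 on log axes, in the 55 single cells, intact in blue and injured in red; dotted lines mark 100 CPM. The 5 cells above 1000 CPM of Pvalb hold at least 396 CPM of Etv1 and 360 CPM of Spp1, and the 9 other cells at or above 100 CPM of Spp1 hold at most 87.1 CPM of Pvalb.

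Spp1 was also high where Pvalb was not. Outside the Pvalb-high set, 9 cells held at least 100 CPM of Spp1, 8 of them injured, with Pvalb at 0 to 87.1 CPM. In 4 of these, Sprr1a exceeded 1000 CPM: their Spp1 was at 142, 158, 521 and 546 CPM and their Etv1 at 0 to 3.87 CPM. In the other 5, the satellite glia list summed to at least 3000 CPM: their Spp1 was at 108, 123, 225, 533 and 1075 CPM. In the same order, mitochondrial genes took 68.3%, 43.3%, 2.34%, 25.02% and 23.9% of their counts, and the Schwann cell list summed to 12484, 3792, 1049.6, 13478 and 11917 CPM. In the last of these cells Apoe, a glial transcript, stood at 46769 CPM, and its neuron list summed to 672 CPM. Among all 10 cells with that much of the glia list, 8 held Spp1 at 10 CPM or more, with a median of 63.9 CPM. The part of glial RNA and of RNA quality in these Spp1 values was not tested.

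The 7 cells with Sprr1a above 1000 CPM were all injured, 6 at 1 month and 1 at 1 year. Calb1 was at 5.34 to 624.9 CPM in them, with a median of 51.03 CPM, against a median of 0.320 CPM in the 28 other injured cells. Their Spp1 median was 142 CPM against 3.28 CPM. Etv1 went the other way, with a median of 0.968 CPM and 0 of 7 cells at 10 CPM, against 9.77 CPM and 14 of 28 cells. Pvalb had medians of 1.02 and 2.60 CPM. These sets also differed in small-fibre genes: that list had a median of 30.3 CPM in the 7 cells against 7899 CPM in the 28, and Scn10a 1.42 against 795 CPM. Of the 28 cells, 4 had the small-fibre list under 1000 CPM. Their median was 22.3 CPM for Calb1 (range 1.40 to 864), 7.25 CPM for Spp1 (4.65 to 677) and 10.3 CPM for Etv1 (3.23 to 968), so that the ranges of all 3 genes overlapped those of the Sprr1a-high cells. Etv1 was also found beside glial RNA. In the 10 cells with at least 3000 CPM of the satellite glia list, 8 of them injured, its median was 66.4 CPM. Of these, 7 held Etv1 at 10 CPM or more. The Sprr1a-high cells held at most 790 CPM of that list, and the part of glial RNA in the Etv1 values was not tested. The 6 Sprr1a-high cells of 1 month all came from L4, which gave 10 of the 17 deep injured cells of that age. The highest Calb1 level of all deep cells, 864 CPM, was in an injured 1-year cell outside this set. These sets too were drawn after the values were seen, and each rests on few cells of unknown animals.

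Across the 20 intact deep cells, log2(CPM + 1) of Pvalb had a Pearson r of 0.78 with Spp1, 0.76 with Etv1, 0.73 with Necab2 and 0.63 with Calb1. Across the 35 injured cells the values were 0.32, 0.41, 0.42 and 0.22. By ranks (Spearman), they were 0.62, 0.70, 0.71 and 0.40 in intact cells and 0.29, 0.36, 0.47 and 0.41 in injured cells. The Pvalb-high set gave 4 of the intact and 1 of the injured cells. Intact cells L4L4M and L4L8M, with few genes found, held 0 counts of every member. The part of these cells in the values was not tested. Necab2 and Etv1 had an r of 0.57 in intact and 0.59 in injured cells. The cells of a group share their dissection, and depth differs from cell to cell, so these are descriptions. Summing all cells of a group, Pvalb came to 311 CPM for the intact and 30.8 CPM for the injured cells of 1 month (Poisson 95% intervals 305 to 316 and 29.3 to 32.4, for counting error only). At 1 year it came to 247 and 39.4 CPM (242 to 251 and 38.1 to 40.7). These sums rest on few cells. Of the intact counts of Pvalb at 1 month, 11265 of 11282 came from 3 cells of the Pvalb-high set, and of the injured ones 1251 of 1595 came from 1. Cell L10 of that set gave 12506 of the 13875 intact counts at 1 year, and the injured 1-year group held no cell of it.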

How the data were processed

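The authors deposited whole-number read counts per gene. Per the file headers they were made with featureCounts 1.5.2, unstranded, on GENCODE vM16, and the submitters' processing notes also name Trim Galore, STAR and mm10. The same deposited table gives other values, the summed exon lengths, used for levels per kb. Of 136 RNA entries, 45 names repeat, leaving 87 columns, each counted once. The 6 genes, the gene lists and the comparisons were chosen with earlier results of these data known.

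Low-input counts were scaled by TMM and tested with edgeR 4.0.16 (quasi-likelihood, robust, filterByExpr, 6 group means, R 4.3.3), with Benjamini-Hochberg adjustment over 14212 genes. DESeq2 1.42.0, limma 3.58.1 and other settings served as alternatives, and the code was tested on simulated counts. Standard errors are the log2 change divided by the root of F. Intact and injured libraries of the same number deviated together at 1 month (r = 0.14, 0.22 and 0.32 over 7106 genes). They did not do so throughout at 8 months (−0.28, −0.25 and 0.14) or 12 months (−0.07, −0.04 and 0.04). The main fit paired no libraries, and the replicate block, an alternative, used the numbers at every age. Cells were scaled to their counts outside the most abundant feature. All 6 genes are named everywhere, with the 6 genes of lowest adjusted p from the list of other large-fibre genes, 1 of which is not reported here, and the 3 genes most correlated with each member. Cell sets by Pvalb, Spp1, Runx3, Sprr1a or glial markers were drawn after the values were seen. A 3 against 3 exact permutation test cannot go below p = 0.1.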

Additional observations from a re-analysis of the deposited data

Results flagged for a closer look

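Cell L10, 1 of the 8 intact 1-year cells, lay far above the rest of its group in 4 of the 6 genes. It held 1334 CPM of Pvalb (next cell 125 CPM), 1247 CPM of Spp1 (next 123 CPM), 1029 CPM of Etv1 (next 96.2 CPM) and 92.3 CPM of Calb1 (next 21.7 CPM). In each, its gap to the next cell exceeded Dixon's 95% limit for a group of this size. The limit is set for normally distributed values, which CPM of genes found in few cells are not, so no chance rate is given. The 6 genes were examined in this group alone, and the 4 values come from the same cell. It is a cell of the Pvalb-high set.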

How the results depend on the processing

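The members called by edgeR, 0 in each of 13 comparisons, changed under few settings. With no filter on low counts 3 were called for the averaged injury comparison, 0 at 1 month, 3 at 8 months and 3 at 12 months, 1, 1 and 3 among intact pools (8 against 1, 12 against 1, 12 against 8 months), 4, 2 and 1 among injured pools, and 2 in each interaction test. Of all 28520 genes that fit called 1722, 276, 661 and 937 for injury, 841, 298 and 1734 among intact pools, 234, 85 and 103 among injured pools, and 385 (joint), 122 and 121 for the interactions. With ERCC scaling 4 were called for the average, 1 at 8 months and 2 at 12 months, beside 13493, 631 and 13675 of 14212 genes. DESeq2 called 1 for intact 12 against 8 months. Leaving out each library in turn gave 0 to 2 in that comparison, 2 without intact 8-month replicate 3, and 0 elsewhere.

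No member passed the threshold for injury, so no call could be lost, but several directions turned. ERCC scaling gave for the average 1.15 (Pvalb), 2.01 (Spp1), 3.04 (Cntnap2), 2.41 (Necab2) and 1.97 (Etv1). It gave at 1 month 0.58 (Pvalb), 1.34 (Cntnap2) and 0.31 (Necab2), and at 8 months 1.32 (Pvalb), 1.87 (Spp1), 2.10 (Cntnap2), 2.41 (Necab2) and 2.47 (Etv1). At 12 months it gave 1.56 (Pvalb), 2.46 (Spp1), 5.66 (Cntnap2), 4.50 (Necab2), 1.57 (Calb1) and 2.43 (Etv1). It moved the median of all genes by 2.90 for the average, 1.3 at 1 month, 2.03 at 8 months and 5.36 at 12 months. Limma-voom gave 1.79 (Spp1) and 0.23 (Cntnap2) for the average, 1.88 (Pvalb), 3.73 (Spp1), 0.39 (Cntnap2), 0.27 (Necab2) and 1.17 (Etv1) at 8 months, and 0.39 (Cntnap2) at 12 months. The share of the most abundant feature as a covariate gave −1.91 (Calb1) and 0.14 (Cntnap2) for the average, −0.13 (Calb1) and −0.059 (Etv1) at 1 month, and for Cntnap2 0.13 at 8 and 0.51 at 12 months. Removing that feature gave 0.012 for Cntnap2 at 12 months. An exact permutation test within ages on log2 CPM, added after seeing the data, gave 2.05 for Spp1 (two-sided p = 0.2105). The cause of these turns was not tested.

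With the replicate number as a replicate block the paired fit gave 1.90 (Spp1) and 0.011 (Cntnap2) for the average, 1.52 (Spp1), 0.12 (Cntnap2) and 0.33 (Etv1) at 8 months, and 1.40 (Spp1) and 0.10 (Cntnap2) at 12 months. It changed no call of a member. Leaving out each library in turn, the count of all genes called for injury ranged from 561 to 1462 for the average, 6 to 47 at 1 month, 27 to 236 at 8 months and 74 to 1036 at 12 months, lowest at 12 months without injured 12-month replicate 2 and highest without intact 12-month replicate 2.

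Leaving out each of 18 libraries in turn, the average ranged from −3.15 to 1.04 for Pvalb, −1.3 to 3.46 for Spp1, −0.30 to 0.046 for Cntnap2, −0.88 to 0.43 for Necab2 and −1.41 to 0.22 for Etv1. The turns of Pvalb, Etv1 and, farthest, Spp1 came without intact 8-month replicate 3, and that of Necab2 without intact 12-month replicate 1. At 1 month the range was −0.84 to 0.11 (Pvalb), −0.53 to 0.19 (Cntnap2), −0.17 to 5.93 (Calb1) and −0.20 to 0.62 (Etv1). At 8 months it was −6.91 to 5.67 (Pvalb), −4.01 to 10.29 (Spp1), −0.52 to 0.47 (Cntnap2), −1.14 to 0.86 (Necab2) and −2.35 to 2.53 (Etv1). At 12 months it was −2.68 to 2.80 (Spp1), −0.43 to 0.54 (Cntnap2) and −1.63 to 2.31 (Necab2). The shares of cells by letter were varied from those with at least 1 count, over all cells with counts. Of these 18 shares, 6 left their interval at 10 CPM, 6 after thinning and 2 without shallow cells. The shares at 10 CPM in deep cells, given above, were not varied in this way.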

Other observations

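Pvalb above 1000 CPM also occurred in 2 injured 1-month cells with too few counts to enter the descriptions. Cell L4R11M, with 8369 counts outside the most abundant feature, held 14936 CPM of Pvalb (125 counts), and its Schwann cell list summed to 16370 CPM. It held counts on 310 genes, and mitochondrial genes took 36.9% of its counts outside that feature. Cell L4R1, with 15071 such counts on 458 genes, 60.6% of them mitochondrial, held 1592 CPM of Pvalb from 24 counts. Both cells held 0 counts of Spp1 and Etv1, unlike the Pvalb-high set. Calb1 stood at 1337 CPM in a further shallow cell, L4L10M, an intact 1-month cell with 22434 counts.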
